A study of Homo sapiens with 16 samples.

Results

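BCYRN1 is the locus of BC200 RNA, and it was followed here across all 8 groups of a TT-chem-seq study of HAP1 cells. It is 1 of the 9944 gene-body rows of the mRNA table and was found there by its gene symbol. BC200 is a short noncoding RNA of primates that RNA polymerase III (Pol III) makes from promoter elements like those of tRNA genes. Its first part descends from an Alu element and binds the SRP9 and SRP14 proteins, its A-rich part binds poly(A)-binding protein, and it is known as a repressor of translation in neurons and as an RNA that many tumours and dividing cell lines carry. Pol II makes mRNA, Pol I makes the 45S ribosomal precursor, and Pol III also makes tRNA and 5S rRNA.

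HAP1 is a near-haploid human line derived from KBM-7 leukaemia cells, and all libraries came from WT cells. The groups were cells given 100 µM DRB, an inhibitor of the kinases that release Pol II into elongation, for 1 h or 5 h, cells given 20 µM ML-60218, labelled as a Pol III inhibitor, for 1 h or 5 h, cells given 1 µM BMH-21, a Pol I inhibitor, for 1 h or 5 h, untreated cells, and cells given no 4-SU. All groups but the last took up 1 mM 4-thiouridine (4-SU) for the final 30 min, and RNA that carried it was biotinylated, pulled down and sequenced after yeast RNA had been added as a spike-in. Each group had 2 libraries, numbered 1 and 2 and labelled as biological replicates. Nothing states that they came from separate cultures. P-values therefore reflect only how far such libraries differ, which may be technical variation. An exact permutation test of 2 against 2 libraries cannot go below p = 0.333.

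The deposited row of BCYRN1 (uc032nmf.2) lies on chromosome 2, from 47331059 to 47344517 on the plus strand of hg38, and spans 13458 bp. RefSeq on GRCh38.p14 places the BCYRN1 RNA itself, with a length of 200 bases, at 47335315 to 47335514, which is 1.49% of the row. The long noncoding transcript EPCAM-DT, from 47192405 to 47345074, covers 100% of the row. Per the file headers, tags were counted without a strand option, so tags of BC200, of EPCAM-DT and of any transcript on the other strand cannot be told apart in this row. How reads that match several Alu-like copies were placed is not given in the sources used here, and the level of BC200 itself is uncertain for that reason too. No other row of the mRNA table overlaps it.

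Library totals ran from 14083584 to 93919776.5 tags, where 1 mate of a read pair counts as 0.5 tag, and the mRNA table held 55845.5 to 6059928.5 of them. ABL1, a gene of the HAP1 parent's fusion, had 173 and 316.5 tags in untreated cells. Of 11 blood lineage markers 6 were in the table, 2 of them with at least 50 tags there, while CD33 was at 0. Of the fibroblast or mesenchymal markers 3 of 4 were in the table, 1 of them with at least 50 tags, and of the epithelial markers 0 of 4. The table thus holds few markers with which to check the labelled cell line.

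BCYRN1 was among the most heavily tagged rows in every library. It had 1777.5 and 8682.5 tags in libraries 1 and 2 after 1 h of DRB, 902.5 and 1492 after 5 h of DRB, 1931 and 3533.5 after 1 h of ML-60218, and 4909.5 and 3868.5 after 5 h of ML-60218. It had 16582.5 and 6732.5 tags after 1 h of BMH-21, 9723.5 and 17435 after 5 h of BMH-21, 3734.5 and 12992.5 in untreated cells, and 1219.5 and 820 without 4-SU. By tags it ranked 1 of 9944 rows in all 4 DRB libraries and between 1 and 5 in the other 12, untreated cells included. Per kb of row, which lets genes of unlike length be compared, its level was 59.2 and 183 tags per 10M (per 10000000 library tags) per kb after 1 h of DRB and 60.2 and 143 in untreated cells.

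As a share of the tags of the mRNA table, BCYRN1 took 1.04% and 2.99% after 1 h of DRB and 1.38% and 2.67% after 5 h of DRB, against 0.363% and 0.774% in untreated cells. The lowest DRB share had a 95% Wilson interval of 0.992% to 1.09% and the highest untreated share one of 0.761% to 0.787%. These intervals cover counting error at most. Reads without molecular identifiers are not independent molecules, so the intervals may be too narrow even for that. All 4 DRB shares lay above both untreated shares, and how many other rows did the same was not counted. The shares were 0.371% and 0.664% after 1 h of ML-60218, 0.518% and 0.515% after 5 h of ML-60218, 0.274% and 0.489% after 1 h of BMH-21, 0.318% and 0.740% after 5 h of BMH-21, and 0.545% and 0.583% without 4-SU. Under ML-60218 the shares lay between the shares of the untreated libraries, and under BMH-21 they overlapped with them.

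**Figure D1:**
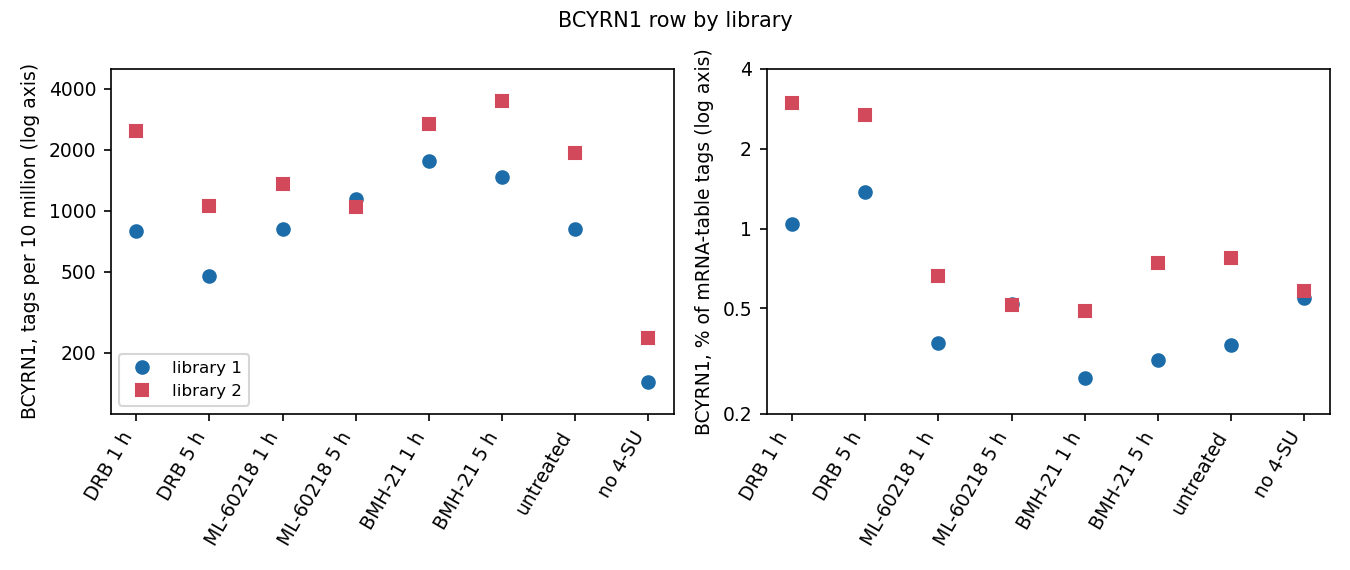
Tags of the BCYRN1 row per 10M tags of the library (left) and as a percentage of the tags of the mRNA table (right), on log axes, for libraries 1 and 2 of the 8 groups. The 4 DRB libraries hold shares of 1.04% to 2.99%, above the untreated shares of 0.363% and 0.774%, and library 2 lies above library 1 in most groups.

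Relative to mRNA, BCYRN1 rose under DRB. The values below are on the typical mRNA scale, in which tags per 10M are divided by the mRNA sum and a factor for a typical gene. Changes were tested as log2(value + 0.5) with limma across 5532 rows kept by a filter on low tags. The filter was set at a minimum of 10 tags, a cutoff that it scales to library size, and BCYRN1 was kept by rule. BCYRN1 was 2374 and 7311 on this scale after 1 h of DRB and 3142 and 6111 after 5 h of DRB, against 854 and 1835 in untreated cells. The groups did not overlap at either time, for which an exact permutation test gives no p below 0.333. The share of all rows without overlap was not counted. The log2 change was 1.73 ± 0.61 after 1 h (SE, 2 libraries per group) with a limma adjusted p of 0.0402, and 1.81 ± 0.61 after 5 h with a limma adjusted p of 0.0231. Of all rows tested, 43.7% passed after 1 h and 64.5% after 5 h, and 15.2% and 25.5% passed as higher, so passing the test was common. On recovered tags both changes also passed in edgeR (adjusted p = 0.000539 after 1 h and 0.00115 after 5 h) and in DESeq2 (0.0189 and 0.0266). In limma the calls were lost when some single libraries were left out: without DRB library 2 the changes were 0.85 (limma adjusted p = 0.364) after 1 h and 1.20 (0.136) after 5 h, and without untreated library 1 they were 1.12 (0.316) and 1.14 (0.232). Without the filter on low tags the adjusted p was 0.129 after 1 h and 0.113 after 5 h, and with 0.1 in place of 0.5 added it was 0.0521 after 1 h.

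On the spike-in scale, which sets each library against the untreated library of its own number, the mRNA sum fell under DRB, and no change of BCYRN1 passed the test in the fit on group means alone. BCYRN1 was at 87.3% and 139% of untreated cells after 1 h of DRB, a mean of 113% ± 36.6 (SD, n = 2), and at 66.7% and 58.7% after 5 h, a mean of 62.7% ± 5.64. The rest of the mRNA table was at 32.8% ± 3.46 after 1 h and 17.1% ± 0.529 after 5 h (SD, n = 2). The tRNA sum was at 98.2% ± 15.4 after 1 h and 92.5% ± 4.38 after 5 h. BCYRN1 thus lay on one side of 100% in library 1 and on the other in library 2 after 1 h, and below 100% in both after 5 h. Its log2 change was 0.14 (95% interval -1.13 to 1.42, limma adjusted p = 0.852) after 1 h and -0.68 (-1.95 to 0.60, limma adjusted p = 0.301) after 5 h, and neither passed. This fit has no term for the library number, so its spread includes the offset between libraries 1 and 2, although the scale is set within a number. With such a term the 5 h change was -0.68 (-1.22 to -0.14) and passed (limma adjusted p = 0.0226), and the 1 h change was 0.14 (-0.40 to 0.68) and did not (0.638). On recovered tags without that term the 5 h change was -0.71 and did not pass in edgeR (adjusted p = 0.146) or DESeq2 (0.390). On this scale 69.2% of all rows passed after 1 h and 83.2% after 5 h, with 67.8% and 75.7% lower. The difference between 5 h and 1 h of DRB was -0.82 on the log2 scale (-2.09 to 0.46, limma adjusted p = 0.276; 51.6% of rows passed), a comparison chosen after the data were seen. It passed with the library number as a term (limma adjusted p = 0.0141). Without that term it was -1.78 (limma adjusted p = 0.0347) without library 1 of the 1 h group and 0.15 (0.877) without library 2.

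**Figure D2:**
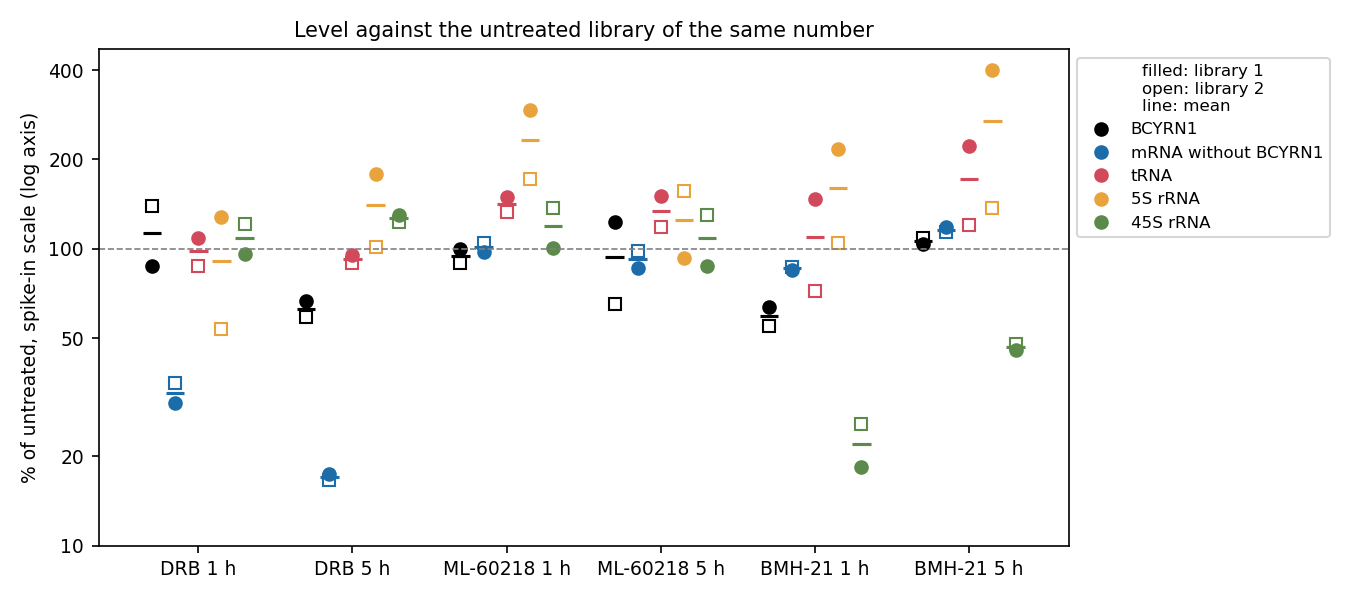
Level on the spike-in scale, as a percentage of the same-numbered untreated library (log axis), of BCYRN1, the mRNA table without BCYRN1, tRNA, 5S rRNA and 45S rRNA under each inhibitor; filled and open symbols are libraries 1 and 2 and short lines are means. Under DRB the mRNA sum lies at 32.8% and 17.1% on average while BCYRN1 lies at 113% and 62.7%.

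Few mRNA rows of like span kept as high a level as the BCYRN1 row under DRB. The class was the 511 rows of 10 to 16 kb with at least 50 tags over the untreated libraries. It matches the span of the deposited row, 13458 bp, and not the length of a transcript. BC200 has 200 bases, and EPCAM-DT spans 152670 bp. Its median level was 12.5% of untreated cells after 1 h of DRB (quartiles 6.88% and 25.9%), and 11 of the rows, or 2.15%, were at or above the mean of BCYRN1. After 5 h its median was 10.4% (quartiles 4.94% and 19.9%), and 15 rows, or 2.94%, were at or above BCYRN1. Among all 3931 rows with that many tags, 70 rows (1.78%) after 1 h and 153 rows (3.89%) after 5 h were at or above it. Under ML-60218 the median of the 10 to 16 kb rows was 100.2% after 1 h and 99.8% after 5 h, and 321 and 299 of them were at or above BCYRN1.

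**Figure D3:**
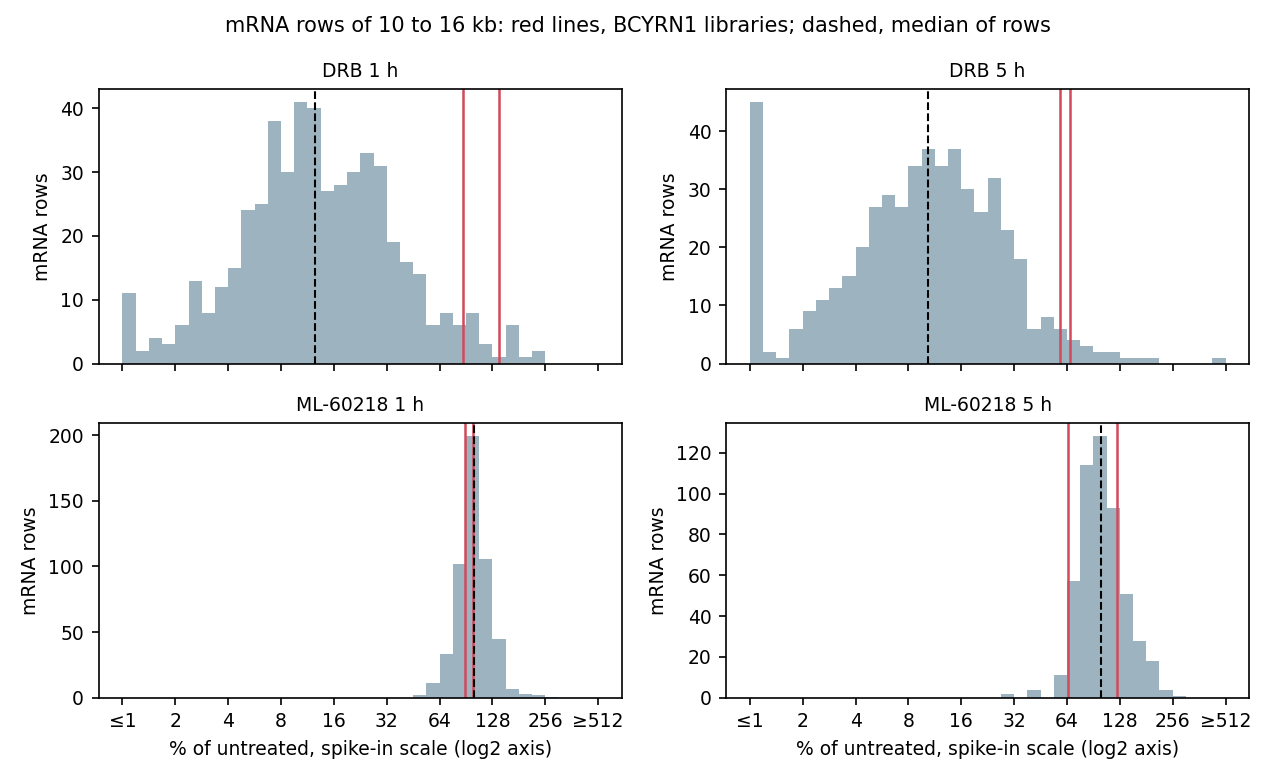
Distribution over the 511 mRNA rows of 10 to 16 kb of the mean level on the spike-in scale, as a percentage of untreated cells (log2 axis, values outside the axis drawn at its ends), under DRB and ML-60218 for 1 h and 5 h; red lines are the libraries of BCYRN1 and the dashed line is the median of the rows. Under DRB, BCYRN1 lies in the upper tail. After 1 h of ML-60218 its lines lie at 99.8% and 89.7%, near the median. After 5 h of ML-60218 they lie on either side of it, at 123% and 65.3%, where the quartiles of the rows are 84.1% and 121.7%.

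Relative to tRNA, no change of BCYRN1 passed the test under any inhibitor. There were 37.2 and 130 BCYRN1 tags per 100 tRNA tags after 1 h of DRB and 32.4 and 53.4 after 5 h of DRB, against 46.5 and 81.4 in untreated cells. There were 30.9 and 54.8 after 1 h of ML-60218, 38.1 and 44.9 after 5 h of ML-60218, 20.1 and 62.2 after 1 h of BMH-21, and 21.7 and 73.5 after 5 h of BMH-21. Only the values of 5 h of ML-60218 lay below both untreated values, and the other treated groups overlapped with them. How many other rows lay below in the same way was not counted. The median log2 change of all rows relative to tRNA was -0.47 after 5 h of ML-60218. With the tRNA sum as the scale, the log2 change of BCYRN1 was 0.18 (95% interval -0.57 to 0.92, limma adjusted p = 0.699) after 1 h of DRB and -0.56 (-1.31 to 0.18, limma adjusted p = 0.155) after 5 h, where 66.3% and 83.7% of rows passed. On this scale limma set the spread of BCYRN1 near that of other rows. Its own libraries differed widely, with 37.2 and 130 after 1 h of DRB. The intervals relative to tRNA are therefore likely too narrow for it. The 1 h value was decided by single libraries, at 1.08 (limma adjusted p = 0.0333) without DRB library 1 and -0.72 (0.157) without DRB library 2. The tRNA sum is itself uneven: the gene tRNA-Tyr-GTA-2-1 held 22.7% of its tags on average.

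Single tRNA genes spread widely around BCYRN1 under DRB. Of the 33 tRNA genes with at least 50 tags over the untreated libraries, 17 were above the mean spike-in level of BCYRN1 and 16 below it after 1 h of DRB, with a median of 114%. After 5 h of DRB 23 were above it and 10 below, with a median of 81.6% and a range of 5.68% to 436%. The highest after 5 h was tRNA-SeC-TCA-1-1, a selenocysteine tRNA gene whose promoter, unlike that of other tRNA genes, lies mostly upstream. It was at 177% and 183% after 1 h and 479% and 393% after 5 h of DRB, above BCYRN1 in each library. The difference between BCYRN1 and single tRNA genes was not tested.

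Under the Pol III inhibitor ML-60218 no change of BCYRN1 passed the test on any scale. On the spike-in scale BCYRN1 was at 99.8% and 89.7% of untreated cells after 1 h of ML-60218 and at 123% and 65.3% after 5 h. The tRNA sum was at 142% ± 11.7 after 1 h and 134% ± 22.5 after 5 h, and 5S rRNA was at 233% ± 85.3 and 125% ± 44.9 (SD, n = 2), so neither of these Pol III products was below untreated cells on average. The log2 change of BCYRN1 was -0.08 (95% interval -1.36 to 1.20, limma adjusted p = 1) after 1 h and -0.16 (-1.43 to 1.12, limma adjusted p = 0.969) after 5 h on the spike-in scale. Relative to typical mRNA it was -0.12 (-1.48 to 1.23) and -0.06 (-1.41 to 1.29), and relative to tRNA -0.58 (-1.32 to 0.16, limma adjusted p = 0.599) and -0.57 (-1.32 to 0.17, limma adjusted p = 0.429). These intervals come from the fit without a term for the library number, so their spread includes the offset between libraries 1 and 2. In that fit they leave room for a change of BCYRN1 by more than 1 log2 unit in either direction relative to mRNA and spike-in RNA. The intervals relative to tRNA are likely too narrow for BCYRN1, as under DRB. Of the 33 tRNA genes, 29 after 1 h and 24 after 5 h were above BCYRN1.

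In limma, BCYRN1 shared the absence of a call with all other rows under ML-60218 relative to mRNA. On the typical mRNA scale limma called 0 of 5532 rows after 1 h (141 at an unadjusted p under 0.05) and 0 after 5 h (437 at an unadjusted p under 0.05), which is 0% each. On the spike-in scale limma called 0% after 1 h and 0.0362% after 5 h, and relative to tRNA 0.0181% and 0.271%. Relative to typical mRNA, edgeR on recovered tags called 1 row higher and 2 lower after 1 h and 228 higher and 127 lower after 5 h. DESeq2 called 3 and 5 after 1 h and 268 and 204 after 5 h on that scale.

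Set directly against each other at the same time, BCYRN1 was higher under DRB than under ML-60218 relative to mRNA, and no difference passed the test relative to spike-in RNA. On the typical mRNA scale BCYRN1 was 2374 and 7311 after 1 h of DRB against 843 and 1564 after 1 h of ML-60218, and 3142 and 6111 after 5 h of DRB against 1203 and 1199 after 5 h of ML-60218. The groups did not overlap at either time, and the share of all rows without overlap was not counted here either. The log2 difference, DRB over ML-60218, was 1.86 (95% interval 0.51 to 3.21, limma adjusted p = 0.0300) at 1 h, where 43.7% of rows passed, and 1.87 (0.52 to 3.22, limma adjusted p = 0.0194) at 5 h, where 65.8% passed. Without DRB library 2 the difference was 0.98 (limma adjusted p = 0.295) at 1 h and 1.26 (0.118) at 5 h. Without ML-60218 library 1 it was 1.41 (0.208) and 1.75 (0.0928), and without ML-60218 library 2 it was 2.25 (0.0527) and 1.84 (0.0826), and without the filter on low tags the adjusted p was 0.100 and 0.0987. On the spike-in scale it was 0.22 (-1.05 to 1.495, limma adjusted p = 0.764) and -0.52 (-1.79 to 0.76, limma adjusted p = 0.427), where 70.4% and 84.3% of rows passed. The comparisons with untreated cells share the same control libraries, and the values of DRB and ML-60218 are therefore given side by side.

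Under the Pol I inhibitor BMH-21, BCYRN1 did not pass the test on any of the 3 scales. It was at 63.7% and 54.9% of untreated cells on the spike-in scale after 1 h and at 103% and 109% after 5 h. The 45S rRNA sum was at 18.4% and 25.6% after 1 h and at 46.6% ± 1.47 after 5 h (SD, n = 2), and the mRNA table without BCYRN1 at 85.8% ± 1.80 and 116% ± 2.84. Both libraries of BCYRN1 were below both of the mRNA sum after 1 h, and its change relative to typical mRNA was -0.55 (-1.90 to 0.80, limma adjusted p = 1). The log2 change of BCYRN1 was -0.76 (95% interval -2.03 to 0.52, limma adjusted p = 0.866) after 1 h and 0.09 (-1.19 to 1.36, limma adjusted p = 0.981) after 5 h on the spike-in scale, and -0.80 (-1.54 to -0.06, limma adjusted p = 0.943) and -0.62 (-1.37 to 0.12, limma adjusted p = 0.651) relative to tRNA. As under DRB, the intervals relative to tRNA are likely too narrow for BCYRN1. limma called 0 rows under BMH-21 on the spike-in scale and 0% after 1 h and 0.235% after 5 h relative to tRNA, with 411 rows after 1 h and 301 after 5 h on the spike-in scale at an unadjusted p under 0.05. On the same scale edgeR called 27 higher and 248 lower after 1 h and 68 higher and 24 lower after 5 h, and DESeq2 called 17 and 239 after 1 h and 97 and 22 after 5 h.

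**Figure D4:**
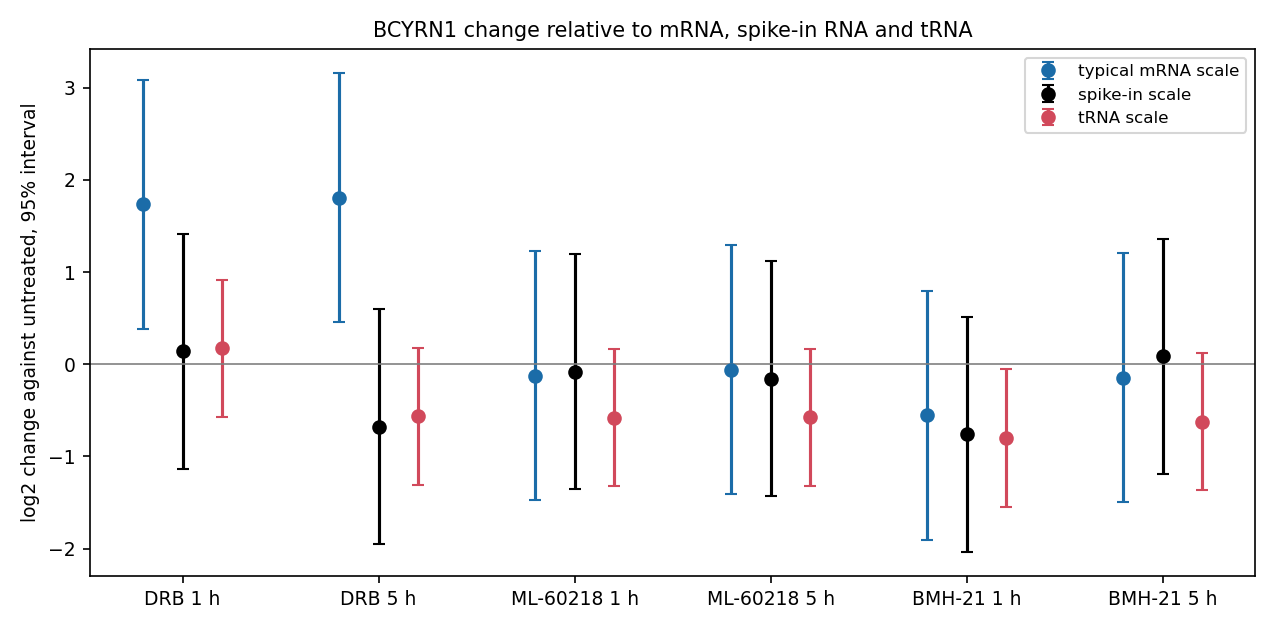
Log2 change of BCYRN1 against untreated cells under each inhibitor, relative to typical mRNA, to spike-in RNA and to tRNA, with 95% intervals from limma (n = 2 per group). The intervals relative to tRNA are likely too narrow for BCYRN1. Changes relative to mRNA after DRB, 1.73 and 1.81, are the ones whose adjusted p passed 0.05; all other adjusted p-values shown missed it.

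Ordered by mean level on the spike-in scale, BCYRN1 was highest after 1 h of DRB (113%), followed by 5 h of BMH-21 (106%), untreated cells (100% by definition), 1 h of ML-60218 (94.7%), 5 h of ML-60218 (94.1%), 5 h of DRB (62.7%), 1 h of BMH-21 (59.3%) and cells without 4-SU (1.81%). Inhibitor groups directly next to each other in this order overlapped between libraries. Untreated cells, set to 100%, have no spread on this scale. The inhibitor groups on either side of them did not overlap, with 103% and 109% after 5 h of BMH-21 and 99.8% and 89.7% after 1 h of ML-60218. The step down to cells without 4-SU was wider than the spread.

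Most of the BCYRN1 signal depended on the label. Untreated cells stood at 100% on the spike-in scale by definition, and cells without 4-SU at 1.58% and 2.05%, a mean of 1.81% ± 0.335 (SD, n = 2). The log2 change, untreated over no 4-SU, was 5.76 (95% interval 4.49 to 7.03, limma adjusted p = 5.6e-09), in a comparison in which limma called 84.4% of rows, 4871 higher and 0 lower. Relative to typical mRNA the change was -0.16 (-1.38 to 1.05, limma adjusted p = 0.841), where 40.1% of rows passed. The unlabelled background of BCYRN1 was near that of the mRNA table without it, at 1.89% ± 1.19, and above that of the tRNA sum, at 0.352% ± 0.00442. Per 100 tRNA tags there were 46.5 and 81.4 BCYRN1 tags in untreated cells, against 210 and 470 without 4-SU, a log2 change of -2.35 (-3.51 to -1.19, limma adjusted p = 0.000654, 77.2% of rows passed) in a comparison chosen after the data were seen.

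The libraries of a group differed more for BCYRN1 than for most rows. On tags per 10M, library 2 lay above library 1 in 6 of the 7 labelled groups. The log2 difference was 1.63 for 1 h of DRB, 1.16 for 5 h of DRB, 0.73 for 1 h of ML-60218, 0.60 for 1 h of BMH-21, 1.25 for 5 h of BMH-21 and 1.25 for untreated cells, while 5 h of ML-60218 had -0.14. For the mRNA table without BCYRN1 the same difference lay between -0.24 and 0.18. The SD of BCYRN1 between libraries of a group, pooled over the 7 labelled groups on the typical mRNA scale, was 0.75 on the log2 scale, against a median of 0.28 over 3440 rows with at least 50 untreated tags on average, of which 332 (9.65%) were at or above BCYRN1. With the library number as a term in the fit, the changes under DRB relative to typical mRNA stayed 1.73 after 1 h (limma adjusted p = 0.00106) and 1.81 after 5 h (0.000484), and their SE was 0.29 in place of 0.61.

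**Figure D5:**
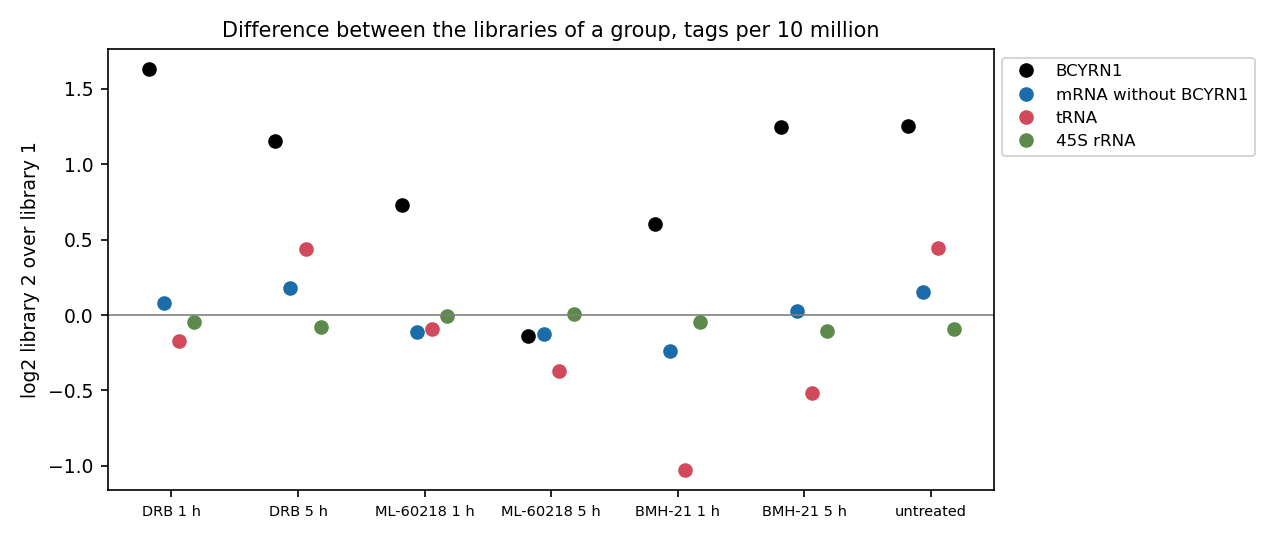
Log2 ratio of library 2 over library 1 in tags per 10M, for BCYRN1, the mRNA table without BCYRN1, tRNA and 45S rRNA in the 7 labelled groups. BCYRN1 lies between 0.60 and 1.63 in 6 groups and at -0.14 after 5 h of ML-60218, while the mRNA sum lies within 0.24 of 0.

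CALM2, a gene near BCYRN1 that encodes calmodulin and lies 154458 bp away on the minus strand, fell under DRB. It was at 5.38% and 11.4% on the spike-in scale after 1 h of DRB and at 7.75% and 6.27% after 5 h. Its log2 change was -3.63 (limma adjusted p = 3.00e-08) after 1 h and -3.79 (5.24e-09) after 5 h. BCYRN1 was above CALM2 in all 4 DRB libraries. C2orf61 and AC093732.1, also within 500 kb, had at most 11 tags in any DRB library.

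Most of the measured genes that encode the Pol III machinery fell under DRB on the spike-in scale, as did most rows of the table. Of 23 listed genes 6 were in the table, and 5 of 6 fell on that scale at each time, where 67.8% of all rows were lower after 1 h and 75.7% after 5 h, with a median log2 change of -1.45 after 1 h and -3.57 after 5 h, beside -1.49 and -2.53 over all rows. Relative to typical mRNA 3 of the 6 were higher and 1 lower after 1 h, where 15.2% of all rows were higher and 28.5% lower. After 5 h 2 were higher and 4 lower, where 25.5% of all rows were higher and 39.1% lower. GTF3C4, a subunit of the factor TFIIIC that binds the internal promoters of tRNA genes, was at 5.37% and 4.31% after 1 h of DRB and 5.00% and 1.89% after 5 h. POLR3E, a Pol III subunit, was at 103% and 115% after 1 h and 100.4% and 170% after 5 h. Its log2 level relative to typical mRNA rose by 1.71 ± 0.21 after 1 h (SE, limma adjusted p = 9.22e-05) and 2.87 ± 0.21 after 5 h (2.47e-06). Under ML-60218 and BMH-21 limma called 0 of these 6 on either scale, where it called at most 0.0362% of all rows.

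Of 13 genes for proteins that bind BC200, 2 were in the table, and both fell under DRB on the spike-in scale, on which 67.8% of all rows fell after 1 h and 75.7% after 5 h. SRP9, whose protein binds the Alu part of BC200, was at 9.79% and 17.7% after 1 h of DRB, a log2 change of -2.83 ± 0.30 (SE, limma adjusted p = 5.86e-07), and at 17.2% and 24.9% after 5 h, a change of -2.22 ± 0.30 (4.20e-06). SSB, the La protein that binds the ends of Pol III transcripts, had changes of -2.19 (limma adjusted p = 2.69e-05) and -1.63 (0.000317). SSB was also counted among the Pol III machinery genes above, so the lists are not separate. Relative to typical mRNA, SRP9 changed by -1.31 after 1 h (limma adjusted p = 0.00151) and had 0.21 after 5 h (0.479), while SSB had -0.69 after 1 h (0.102) and rose by 0.79 after 5 h (0.0464). Of 16 genes of other Pol III RNAs, such as RMRP and RN7SK, 0 were in the mRNA table, so BCYRN1 could not be set beside them.

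Among 3440 rows, those whose log2 level on the typical mRNA scale followed BCYRN1 most closely over the 14 labelled libraries were YLPM1 (Pearson r = 0.943), SLC25A23 (0.935), CTA-221G9.12 (0.927), MAP3K13 (0.925) and PICALM (0.922). On the spike-in scale CTA-221G9.12 was at 78.6% and 97.2% after 1 h of DRB and 52.6% and 61.2% after 5 h, while YLPM1 was at 42.0% and 46.2% after 1 h and 25.4% and 21.5% after 5 h. The level of BCYRN1 had r = 0.773 with the 45S sum, 0.733 with the tRNA sum and 0.517 with the 5S sum over the same 14 libraries. All of these values share their libraries and the mRNA sum as divisor, and they are descriptions.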

How the data were processed

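Nascent RNA of 16 HAP1 libraries was tabulated by the authors. Per the submitters' processing notes, the tools were STAR 2.7.7a, HOMER, Trim Galore 0.6.5 and FastQC 0.11.9, and the builds GRCh38 and R64. The deposited signal columns hold tags per 10M, per the file headers, for 9944 mRNA rows, 631 tRNA genes, 5S rRNA and 45S rRNA. The 45S rRNA columns were read in the same unit as the others. Ratio columns, also deposited by the authors, give the spike-in scaled level of each library divided by that of the same-numbered untreated one. The spike-in factors were taken from them, and 8 columns of group means were not used. Multiplied by the library total, 91787 of 91787 mRNA values and 3243 of 3244 tRNA values under 200 tags were multiples of 0.5 tag within 0.005 tags per 10M. These recovered tags served for filtering, for the scaled values tested with limma, and for edgeR and DESeq2.

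The limma trend test was run on log2(value + 0.5) over rows kept by filterByExpr (minimum 10 tags) and the class sums, with 14 labelled libraries and group means, or 16 for the comparison with no 4-SU, and adjusted by Benjamini-Hochberg at 0.05. The scales were the mRNA sum times a TMM factor, the spike-in factors, and the tRNA sum. The limma procedure was run on simulated tags with known changes. These had the same dispersion for all rows and no offset between library numbers, so they do not cover the spread seen for BCYRN1. Named genes were BCYRN1, rows within 500 kb, the 5 rows of highest correlation, and up to 4 members of smallest adjusted p in each list. Results of a few genes that this rule takes are withheld and not given here. Members and lists were chosen with earlier results of these data known. Alternatives were other pseudocounts, no filter, other scalings, edgeR, DESeq2, fits on the compared groups alone, a replicate block and each library left out. Versions used were Python 3.11.15, DESeq2 1.42.0 and, in R 4.3.3, edgeR 4.0.16 with limma 3.58.1.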

Additional observations from a re-analysis of the deposited data

How the results depend on the processing

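Of 311 alternative values over the 26 results of BCYRN1, 266 kept the direction and the side of the threshold, 25 changed direction, 15 no longer passed and 5 newly passed. The limit on all of them is 2 libraries per group. Relative to typical mRNA, without the filter on low tags the log2 change was 1.54 (limma adjusted p = 0.129) after 1 h and 1.43 (0.113) after 5 h of DRB, 1.67 (0.100) and 1.49 (0.0987) for DRB against ML-60218 at 1 h and 5 h, and 0.19 for untreated against no 4-SU; with 0.1 added before the log2, 1 h of DRB gave 1.73 (0.0521). More rows are tested without the filter. Relative to tRNA, leaving out tRNA-Tyr-GTA-2-1 gave -0.052 after 1 h of DRB. The cause of the other changes was not tested.

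Leaving out 1 library at a time gave these ranges, with 1 h before 5 h. Relative to typical mRNA they were 0.85 to 2.48 for 1 h and 1.14 to 2.36 for 5 h of DRB, -0.68 to 0.43 and -0.61 to 0.51 for ML-60218, -1.11 to 0.0056 and -0.78 to 0.49 for BMH-21, 0.98 to 2.62 and 1.26 to 2.24 for DRB against ML-60218, and -0.65 to 0.46 for untreated against no 4-SU. On the spike-in scale they were -0.82 to 1.10 for 1 h and -1.30 to -0.05 for 5 h of DRB, -0.71 to 0.55 and -0.78 to 0.47 for ML-60218, -1.38 to -0.13 and -0.58 to 0.75 for BMH-21, -1.78 to 0.15 for 5 h against 1 h of DRB, and -0.74 to 1.18 and -1.05 to 0.016 for DRB against ML-60218. Relative to tRNA they were -0.72 to 1.08 for 1 h and -0.97 to -0.16 for 5 h of DRB, -0.99 to -0.17 and -0.98 to -0.17 for ML-60218, and -1.61 to 0.016 and -1.50 to 0.26 for BMH-21. For untreated against no 4-SU they were 4.96 to 6.56 on the spike-in scale and -2.93 to -1.77 relative to tRNA. A group left with 1 library is assumed to vary like the others.

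The main fits did not treat library numbers as pairs. Same-numbered deviations from group means correlated at -0.04 to 0.44 over 3463 rows, with a median of 0.139. The correlation was above 0.1 in 12 of 21 pairs of groups, so the numbers shared some variation. For BCYRN1 the mean log2 ratio of library 2 over library 1 was 0.953 on the typical mRNA scale. Of 3440 rows, 8 were at or above that. With the number as a replicate block, the spike-in change after 5 h of DRB was -0.68 with a limma adjusted p of 0.0226, and that of 5 h against 1 h of DRB was -0.82 with 0.0141; the fit on those groups alone gave -0.82 with 0.00885. The block changed no other call. With DESeq2 size factors the median change of all rows was 0.03 after 1 h and -0.18 after 5 h of DRB, against -0.15 and -0.44 on the typical mRNA scale.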
